A study of Rattus norvegicus with 12 samples.

Results

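The genes described here encode enzymes and chaperones that process and cross-link collagen. They were taken as the 10 genes named Lox, Loxl1, Loxl2, Loxl3, Loxl4, Plod1, Plod2, P4ha3, Pcolce and Serpinh1, out of 23096 genes in the table, and each name stood on 1 line. Their RNA was measured in 12 samples of lung with bronchi from Sprague Dawley rats, all labelled as male, 8 weeks old and 300 g. Rats of the DA group (6 libraries) were given 125 mg/kg of 2,3-butanedione (diacetyl, DA), a food flavouring agent that injures airways, by instillation into the trachea daily over 7 days. Rats of the control group (6 libraries) were given aseptic distilled water by the same route, on a schedule the labels do not spell out, and tissue was taken 24 h after the final instillation. The question here was how the RNA of these genes differed between DA and control lungs.

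Collagen chains are modified in the endoplasmic reticulum, where prolyl hydroxylases such as the P4ha3 product stabilise the triple helix and lysyl hydroxylases, encoded by the Plod genes, prepare lysines for later cross-links. The chaperone encoded by Serpinh1 binds the folded procollagen helix and accompanies it towards the Golgi. Outside the cell, the Pcolce product enhances removal of the C-terminal propeptide, and the copper-dependent lysyl oxidases, encoded by Lox and Loxl1 to Loxl4, oxidise lysines of collagen and elastin so that fibres become cross-linked. These enzymes are known for raising the stiffness of scarred lung.

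For 4 of these genes, the 250 bases before the annotated start are shown, from RefSeq on the rat build GRCr8. Of the 10 genes, 8 had an entry. The first 3 sequences belong to genes whose RNA rose in DA lungs, and the last to Serpinh1, known as a heat-shock gene. The windows are chr8:67612225-67612474, minus strand, for Loxl1, chr8:101964068-101964317, plus strand, for Plod2, chr12:24720722-24720971, plus strand, for Pcolce, and chr1:163062977-163063226, minus strand, for Serpinh1. Each is written 5′ to 3′ on the gene's strand. Capitals mark matches, on either strand, to ACGTG (the core of the hypoxia response element), GAANNTTC (a core of the heat shock element), CCAAT and TATAAA. The motifs differ in their letters, and the matches shown do not overlap.
Loxl1: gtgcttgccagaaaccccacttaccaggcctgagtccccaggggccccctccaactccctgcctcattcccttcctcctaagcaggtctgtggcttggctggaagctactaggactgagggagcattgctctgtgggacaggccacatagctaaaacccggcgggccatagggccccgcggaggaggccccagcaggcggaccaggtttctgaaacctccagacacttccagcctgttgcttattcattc
Plod2: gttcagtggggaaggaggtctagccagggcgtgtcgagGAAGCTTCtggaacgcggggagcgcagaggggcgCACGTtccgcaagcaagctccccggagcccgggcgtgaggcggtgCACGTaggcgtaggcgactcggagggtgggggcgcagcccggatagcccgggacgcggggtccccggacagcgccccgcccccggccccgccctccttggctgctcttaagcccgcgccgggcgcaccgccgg
Pcolce: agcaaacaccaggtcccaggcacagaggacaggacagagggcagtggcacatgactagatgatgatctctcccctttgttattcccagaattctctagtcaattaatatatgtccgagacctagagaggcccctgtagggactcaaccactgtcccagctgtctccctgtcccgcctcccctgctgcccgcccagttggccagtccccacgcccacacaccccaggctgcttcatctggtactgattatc
Serpinh1: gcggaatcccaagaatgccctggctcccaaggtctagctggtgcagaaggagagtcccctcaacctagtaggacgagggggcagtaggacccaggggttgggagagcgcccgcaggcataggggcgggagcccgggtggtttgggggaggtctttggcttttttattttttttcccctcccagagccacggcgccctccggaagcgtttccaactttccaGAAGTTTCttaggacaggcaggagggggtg
The Plod2 window held ACGTG at 2 places, starting 178 and 133 bases before the start, and GAANNTTC at 1 place, 212 bases before it. The Serpinh1 window held GAANNTTC 30 bases before the start. The Loxl1 and Pcolce windows held none of these letters. Of the 4 windows not shown, Plod1, which was not called, held GAANNTTC 9 bases before the start, Loxl4, not called either, held CCAAT 204 bases before it, and Loxl3 and P4ha3 held none. Over 33469 RefSeq windows of the same length, ACGTG was present in 16.6%, GAANNTTC in 7.23%, CCAAT in 34% and TATAAA in 12.9%. A match describes letters and is not a measured binding site.

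Total counts ranged from 13723207 to 16271842 per library, and all 10 genes passed the filter on low counts, the lowest single value being 69 reads of Loxl3 in DA replicate 4. Kdm5d, Eif2s3y and Uty, genes of the Y chromosome, together had 2185 to 2881 counts in DA replicates 1 to 4 and control replicates 1 and 2. They had 0 counts in DA replicates 5 and 6 and control replicates 3 to 6, although all were labelled male. DA replicate 4 stood apart in its makeup. The summed level of 8 lung epithelial markers was 8018 CPM there (CPM, read counts scaled to library size with TMM factors), against 18541 to 31499 CPM in the other DA libraries and 17771 to 25759 CPM in controls. Sftpc, the surfactant gene that marks alveolar type II cells, was present in every library, with means of 9990 CPM in DA and 10412 CPM in control lungs. The summed level of 8 cardiac muscle markers was 692 CPM in DA replicate 4 and 34.9 to 244 CPM in the other DA libraries, against 12.1 to 26.4 CPM in controls. Much of this sum was Actc1, with a median of 123 CPM in DA lungs (28.5 to 232), against 14.5 CPM in controls (9.33 to 21.1). Myh6 and Myl7 had medians of 0.069 CPM in DA lungs, although their highest DA values were 230 and 100 CPM. In bulk tissue, fewer cells of a type and less RNA per cell cannot be told apart. Nothing beyond the labels shows that each library came from a separate rat.

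The RNA of 4 of the 10 genes rose in DA lungs: Loxl2, Pcolce, Loxl1 and Plod2. None was called lower (0 of 10 by edgeR's quasi-likelihood test, 0 at an unadjusted p under 0.05, and 0 by DESeq2). Of all 14517 genes tested, 8.45% were called higher at a Benjamini-Hochberg adjusted p under 0.05 and 7.51% lower. The median log2 fold change (DA over control) of the 10 genes was 0.62, against 0.03 over all tested genes. In 2 of the 10, every DA library lay above every control library, which held for 3.11% of all tested genes. In 0 of the 10 did every DA library lie below, which held for 2.93%. Without DA replicate 4, 6 of the 10 were called higher, against 9.00% of all genes, with P4ha3 and Serpinh1 added, and 4 of the 10 lay above every control, against 4.68%. The same 6 genes were called by DESeq2, against 13.0% of all genes, with upper quartile scaling, against 11.4%, and with voom quality weights, against 14.0%. With the replicate number as a block, 5 were called, against 4.66%. Without DA replicate 1, and likewise without control replicate 4, 3 of the 10 were called (Loxl2, Pcolce and Loxl1), while the share of all genes called higher fell to 4.10% and 3.96%.

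**Figure D1:**
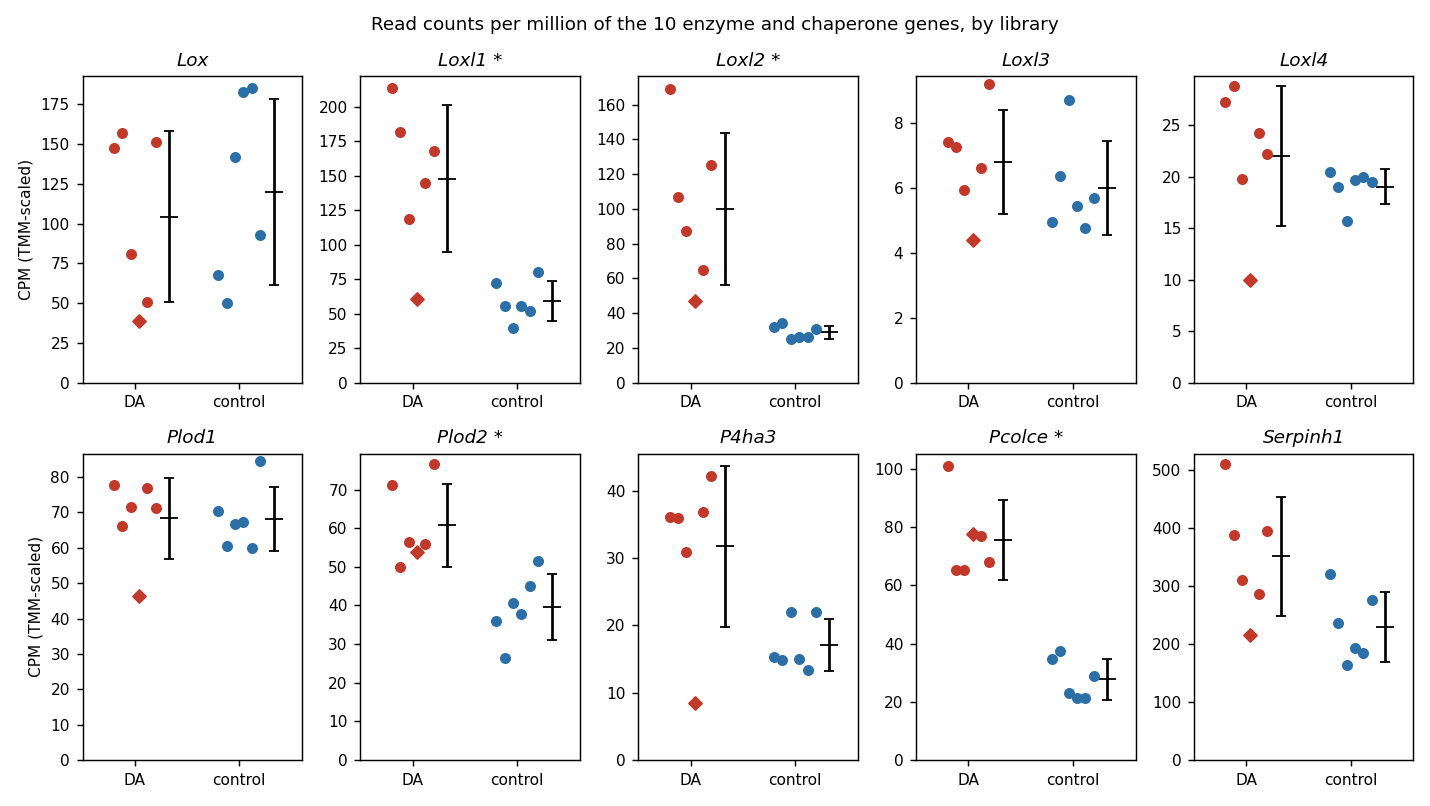
Level of each gene in TMM-scaled CPM (vertical axes, each from 0) in the 6 DA and 6 control libraries; points are libraries in replicate order, the diamond is DA replicate 4, bars are mean ± SD, and an asterisk marks an adjusted p under 0.05. Loxl2 and Pcolce are the 2 genes whose DA libraries all lie above all controls, and the diamond is the lowest DA point in 8 of 10 panels (DA replicate 4 was the lowest DA library in 30.6% of all tested genes).

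Among the lysyl oxidases, Loxl2, whose product oxidises collagen IV as well as fibrillar collagens, had the highest fold change of the 10 genes. Loxl2 (ENSRNOG00000016758) ranged from 47.2 to 169 CPM in DA lungs, with a median of 97.0, against 25.3 to 34.0 CPM in control lungs, with a median of 28.6. Every DA library was above every control, and the DA libraries differed among themselves by far more than the controls did (SD 43.9 CPM in DA and 3.71 CPM in control, n = 6 each). The log2 fold change was 1.78 ± 0.26 (SE, adjusted p = 0.00297), and it was called without any single library, at 1.57 to 1.92. Within the 6 libraries that held Y-linked reads its log2 fold change was 1.64, and within the 6 that did not it was 1.80.

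Loxl1, which is tied to elastic fibre assembly, rose as well. Loxl1 (ENSRNOG00000008680) had 60.6 to 213 CPM in DA lungs, with a median of 156, against 39.3 to 80.1 CPM in control lungs, with a median of 55.6. The overlap came from DA replicate 4, at 60.6 CPM; the other DA libraries started at 119 CPM. Loxl1 had a log2 fold change of 1.32 ± 0.26 (adjusted p = 0.00849), and 1.48 (adjusted p = 0.00118) without DA replicate 4.

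Lox, the founding member, which acts on fibrillar collagen and elastin, did not pass the test. Lox (ENSRNOG00000014426) had 148, 157, 80.8, 39.0, 50.8 and 151 CPM in DA replicates 1 to 6, against 67.6, 49.8, 142, 183, 185 and 92.6 CPM in control replicates 1 to 6. Both groups held a library near 50 CPM and libraries near or above 150 CPM, so they overlapped over nearly their whole ranges. Its log2 fold change was -0.20 ± 0.40 (adjusted p = 0.761). Among controls, the libraries with Y-linked reads had 49.8 and 67.6 CPM of Lox, and those without had 92.6 to 185 CPM. Such a split among controls was not particular to Lox. Pcolce had 34.7 to 37.4 CPM with such reads and 21.2 to 29.0 without, and Loxl2 had 31.8 to 34.0 and 25.3 to 31.1. Plod2 had 26.4 to 35.9 CPM with such reads and 37.7 to 51.5 without. The log2 fold change of Lox was 0.85 within the libraries that held Y-linked reads (adjusted p = 0.617), and -0.58 within those that did not (adjusted p = 0.421). The difference between these effects, 1.43 ± 0.78 on the log2 scale, did not pass the test of the interaction (adjusted p = 0.674). For Pcolce the same test gave -0.51 ± 0.27 (adjusted p = 0.674). Of all 14517 tested genes, 0 passed it, so these outcomes do not show that the effects were alike. Libraries also differed in a clock score (mean log2 CPM of 8 clock genes of one phase minus that of 5 of the opposite phase). The clock score was 0.25 to 1.27 in DA lungs. It was 2.30 and 3.24 in control replicates 1 and 2, 0.41 in control replicate 3, and -1.69 to -1.21 in control replicates 4 to 6. Y-linked reads and clock score thus moved together among controls, and their part in the Lox values was not tested.

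Loxl3 and Loxl4, the other lysyl oxidases, were not called. Loxl4 (ENSRNOG00000015727) had 9.95 to 28.8 CPM in DA lungs, with a median of 23.2, against 15.7 to 20.5 CPM in control lungs, with a median of 19.6 (log2 fold change 0.21 ± 0.20, adjusted p = 0.505). Loxl4 was lowest of the 12 libraries in DA replicate 4, while 4 of the other 5 DA libraries lay above every control. Without DA replicate 4 its log2 fold change was 0.36 (adjusted p = 0.0541). Loxl3 (ENSRNOG00000061373), the scarcest of the 10 genes, had 4.399 to 9.18 CPM in DA lungs, with a median of 6.91, against 4.76 to 8.71 CPM in control lungs, with a median of 5.56 (log2 fold change 0.18 ± 0.21, adjusted p = 0.569). The Loxl3 ranges nearly coincided.

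Per length, Loxl1 and Loxl2 held a higher share of lysyl oxidase RNA in every DA library than in any control. FPKM values divide counts by gene length and library total, so a comparison between genes is only as good as the lengths. The deposited lengths ran from 1783 for Lox to 9253 for Loxl2 among these 5 genes. Their origin is not given, so the size of each share depends on lengths that could not be checked. Loxl1 made up 39.3 to 57.8% of the summed FPKM of the 5 genes in DA lungs, against 15.4 to 38.3% in control lungs. Loxl2 made up 6.31 to 9.29% in DA lungs, against 2.09 to 6.07% in control lungs. For both genes the ranges did not overlap, although the nearest values were close. The Lox share had a median of 41.7% in DA lungs, against 65.9% in control lungs. It ranged from 27.9 to 48.7% in DA lungs, against 46.2 to 77.5% in control lungs, and control replicate 2 was the control that reached into the DA range. The summed FPKM of the 5 genes had a median of 136 in DA lungs (59.7 to 198), against 98.0 in control lungs (61.9 to 134). These shares describe the libraries and were not tested.

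**Figure D2:**
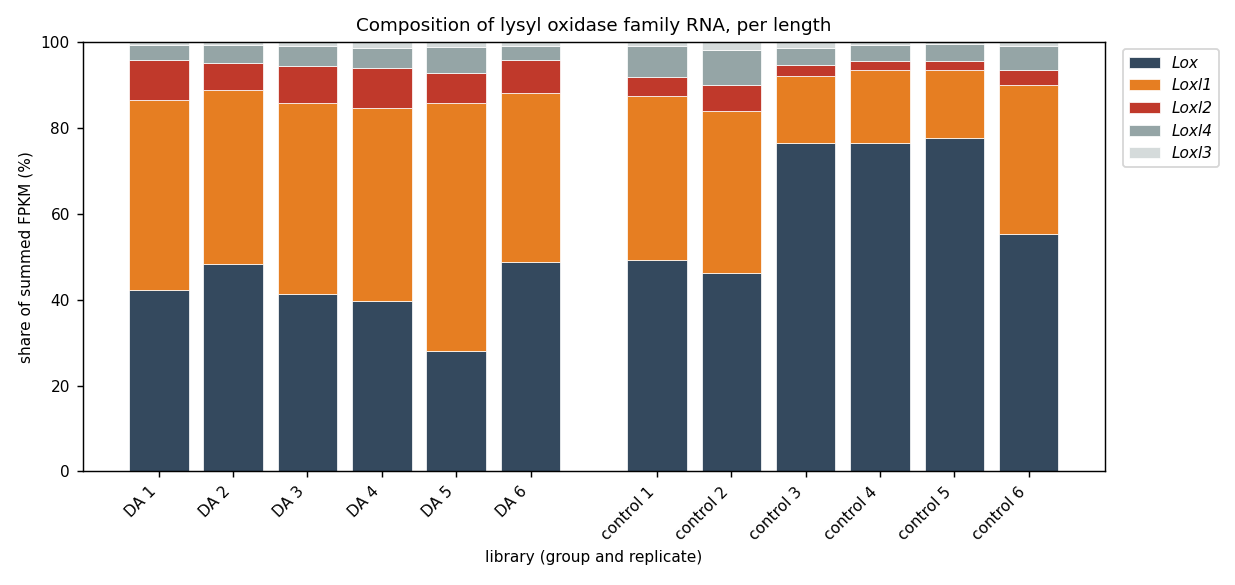
Share of the summed FPKM (%) held by each of the 5 lysyl oxidase genes, stacked to 100% for each of the 6 DA and 6 control libraries. Loxl1 and Loxl2 together take more of each DA bar than of any control bar, and Lox reaches its highest share, 77.5%, in control replicate 5.

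Of the lysyl hydroxylase genes, Plod2 was called and Plod1 was not; the difference between their changes was not tested. Plod2, whose product hydroxylates lysines in the telopeptides of fibrillar collagen, rose. Plod2 (ENSRNOG00000030183) had 50.02 to 76.7 CPM in DA lungs, with a median of 56.2, against 26.4 to 51.5 CPM in control lungs, with a median of 39.2. Control replicate 6 reached into the DA range. For Plod2 the log2 fold change was 0.62 ± 0.16 (adjusted p = 0.0227). Leaving out DA replicate 1 (adjusted p = 0.0535) or control replicate 4 (adjusted p = 0.0512) ended the call for Plod2. So did keeping only libraries that lacked Y-linked reads (0.59, adjusted p = 0.0702). Plod1 (ENSRNOG00000007763), which acts on helical lysines, had 46.3 to 77.8 CPM in DA lungs, with a median of 71.3, against 59.9 to 84.7 CPM in control lungs, with a median of 67.0 (log2 fold change 0.00 ± 0.13, adjusted p = 0.997). DA replicate 4 was the lowest of the 12 libraries and control replicate 6 the highest. The ratio of Plod2 to Plod1 FPKM was 1.06 to 1.70 in DA lungs, with a median of 1.25, against 0.638 to 1.10 in control lungs, with a median of 0.854. Plod2 thus stood above Plod1 per length in each DA library and below it in 5 of 6 controls. Which gene stood higher depends on the deposited lengths, 7314 for Plod2 and 10696 for Plod1. In CPM, which is not divided by length, the mean of Plod2 was below that of Plod1 in both groups. The means were 60.7 against 68.3 CPM in DA lungs and 39.5 against 68.2 CPM in control lungs.

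P4ha3, a catalytic subunit of prolyl 4-hydroxylase, narrowly missed the threshold. P4ha3 (ENSRNOG00000017118) had 36.1, 36.0, 30.9, 8.42, 36.9 and 42.3 CPM in DA replicates 1 to 6, against 13.4 to 22.0 CPM in control lungs, with a median of 15.1. In the other 5 DA libraries P4ha3 lay above every control, while in DA replicate 4 it lay below every control. The log2 fold change of P4ha3 was 0.89 ± 0.30 (adjusted p = 0.0571). Without DA replicate 4 it was 1.09 ± 0.15 (adjusted p = 0.00173).

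Pcolce, the procollagen C-proteinase enhancer, rose with the smallest adjusted p of the 10 genes. Pcolce (ENSRNOG00000025001) had 65.2 to 101 CPM in DA lungs, with a median of 72.4, against 21.2 to 37.4 CPM in control lungs, with a median of 26.1. Every DA library was above every control, and DA replicate 4, at 77.7 CPM, was the next to highest DA library. The log2 fold change of Pcolce was 1.44 ± 0.17 (adjusted p = 0.00267), at 1.34 to 1.54 without any single library. It was 1.10 within the libraries with Y-linked reads and 1.605 within those without.

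Serpinh1, the collagen chaperone and the most abundant of the 10 genes per length, was not called. Serpinh1 (ENSRNOG00000016831) had 215 to 511 CPM in DA lungs, with a median of 349, against 164 to 321 CPM in control lungs, with a median of 215. DA replicate 4 was the lowest DA library and control replicate 1 the highest control. The log2 fold change of Serpinh1 was 0.61 ± 0.21 (adjusted p = 0.064). Serpinh1 was called higher without either of them (0.72, adjusted p = 0.0246, without DA replicate 4, and 0.73, adjusted p = 0.0407, without control replicate 1), and with the replicate number as a block (0.60, adjusted p = 0.0242).

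With a term for Y-linked reads, the test left the same 4 genes called (3.78% of all genes were called higher in that fit), at log2 fold changes of 1.72 for Loxl2, 1.36 for Pcolce, 1.31 for Loxl1 and 0.75 for Plod2. In the 6 libraries without Y-linked reads (2 DA and 4 control), 4 of the 10 genes were called, Loxl2, Pcolce, Loxl1 and P4ha3, against 4.82% of all genes. In the 6 with such reads (4 DA and 2 control), 0 of the 10 and 0 of 15007 genes were called by edgeR (0.00%), while 4 of the 10, the same genes as in all libraries, had an unadjusted p under 0.05 and a positive change, as did 6.34% of all genes in that subset. DESeq2 was not run in these subsets.

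Set in order of FPKM, Serpinh1 came first in both groups, at 170 ± 47.6 FPKM in DA and 111 ± 29.3 FPKM in control lungs (SD, n = 6 each). In DA lungs Loxl1 (60.0 ± 21.1) and Lox (58.0 ± 28.9) followed, then Pcolce (24.2 ± 4.85), Loxl2 (10.7 ± 4.61), Plod2 (8.30 ± 1.28), P4ha3 (6.99 ± 2.53), Plod1 (6.38 ± 0.97), Loxl4 (5.79 ± 1.72) and Loxl3 (1.17 ± 0.234). In control lungs Serpinh1 was followed by Lox (66.8 ± 32.2), Loxl1 (24.05 ± 5.97), Pcolce (8.82 ± 2.33), Plod1 (6.35 ± 0.818), Plod2 (5.37 ± 1.11), Loxl4 (5.004 ± 0.463), P4ha3 (3.78 ± 0.834), Loxl2 (3.13 ± 0.433) and Loxl3 (1.03 ± 0.25). Loxl2 stood in place 5 in DA lungs and in place 9 in control lungs. In DA lungs neighbours had separate ranges at 3 steps of that order: Serpinh1 above Loxl1, Pcolce above Loxl2, and Loxl4 above Loxl3. In control lungs they did at 2 steps, Loxl1 above Pcolce and Loxl2 above Loxl3. All other neighbours overlapped in range. These places and steps depend on the deposited lengths, which run from 1783 for Lox to 10696 for Plod1. By mean CPM in control lungs, Loxl2 (29.0) lay above Pcolce (27.8), Loxl4 (19.0) and P4ha3 (17.1), although it came after them by FPKM.

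Relative to collagen I, the main fibrillar substrate, the genes differed. Taking the summed CPM of Col1a1 and Col1a2 as 1000, Loxl2 stood at a median of 46.1 in DA lungs, against 42.2 in control lungs. Pcolce stood at 29.6 in DA lungs, against 39.9 in control lungs, and Loxl1 at 68.6 in DA lungs, against 88.8 in control lungs, all with overlapping ranges. Serpinh1 stood at 85.3 to 230 per 1000 in DA lungs, against 266 to 379 in control lungs, with no overlap. Plod1 stood at 18.4 to 55.6 in DA lungs, against 68.1 to 137 in control lungs, also with no overlap. Loxl3 and Loxl4 were likewise below all controls, so that 4 of the 10 genes lay lower in every DA library. The same held for 66.6% of all tested genes, collagen I itself being higher in every DA library than in any control. None of the 10 lay higher relative to collagen I in every DA library (0 of 10, against 0.00689% of all tested genes).

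**Figure D3:**
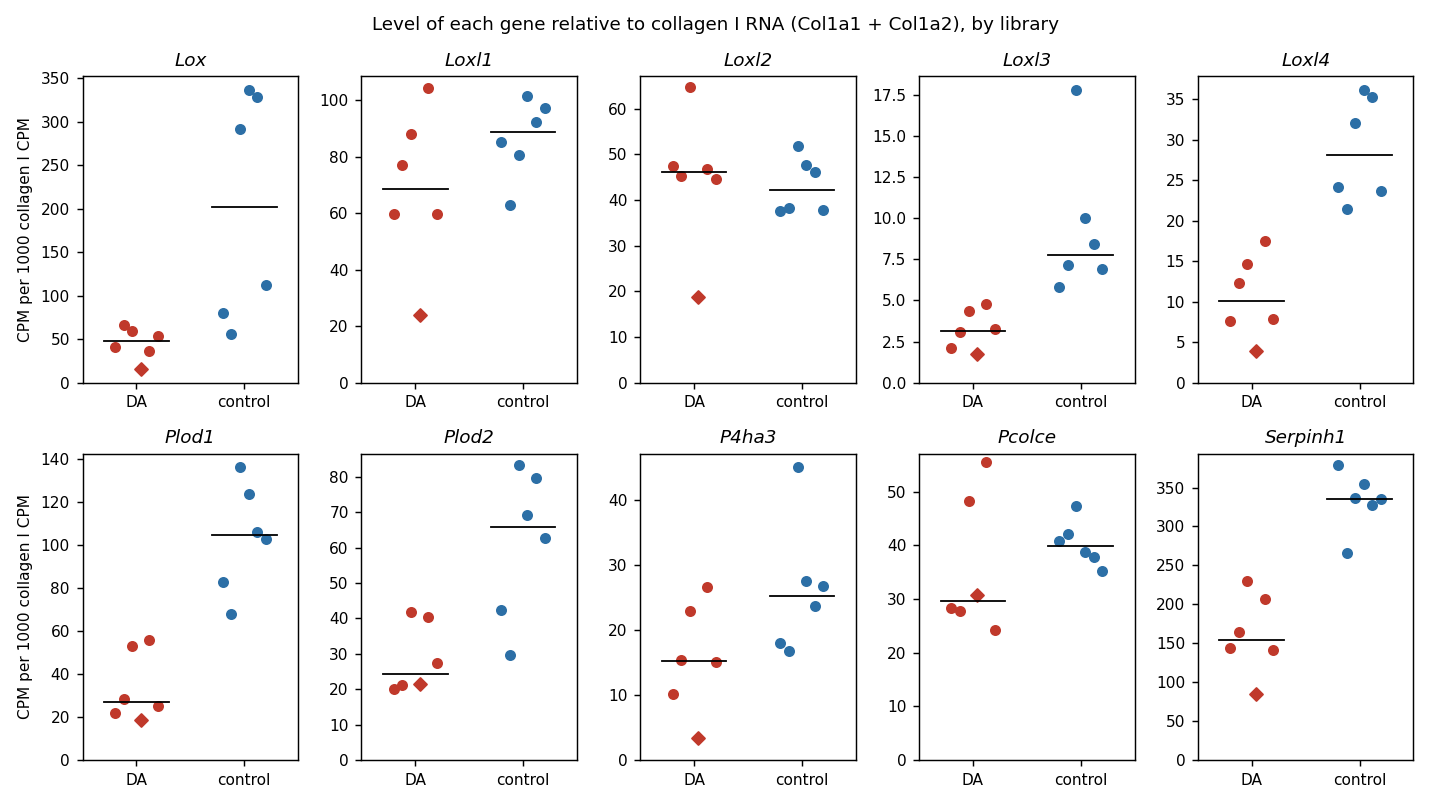
CPM of each gene per 1000 CPM of collagen I (Col1a1 plus Col1a2) in the 6 DA and 6 control libraries; points are libraries, lines are medians, and the diamond is DA replicate 4. Loxl2 has medians of 46.1 in DA and 42.2 in control lungs, while Serpinh1, Plod1, Loxl3 and Loxl4 lie lower in every DA library than in any control.

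Other genes of the pathway were taken from 4 lists. Over all tested genes, edgeR called 8.45% higher and 7.51% lower, and DESeq2 called 13.0% higher. No such share is given here at an unadjusted p in all 12 libraries, so the list counts at that threshold lack a background. Of 17 other modification and folding genes, all tested, 4 rose and 0 fell (8 and 1 at an unadjusted p under 0.05; 5 and 0 by DESeq2), and the median of their log2 fold changes was 0.26. The called genes were Fkbp10 (0.90, adjusted p = 0.00681), a collagen prolyl isomerase that assists lysyl hydroxylation, and Creb3l1 (0.89, adjusted p = 0.0204), a transcription factor that drives collagen secretion genes in bone. P3h4 (0.71, adjusted p = 0.0288), a partner of the lysyl hydroxylases, and P4hb (0.40, adjusted p = 0.0304), the shared beta subunit of prolyl 4-hydroxylase, were the others. The lowest adjusted p among those with negative values belonged to Tmem38b (-0.70, adjusted p = 0.113), for an ion channel of the endoplasmic reticulum, and P4ha2 (-0.28, adjusted p = 0.202), another prolyl 4-hydroxylase subunit, neither of them called. The lysyl hydroxylase gene Plod3 stood at -0.14 (adjusted p = 0.419). Crtap was matched through RefSeq synonyms to the line named Crtapl1.

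Of 10 tested genes of procollagen secretion and trimming, 0 rose and 0 fell by edgeR (2 and 2 at an unadjusted p under 0.05; 0 and 1 by DESeq2), with a median of 0.16. Bmp1, the procollagen C-proteinase that the Pcolce product enhances, had a log2 fold change of 0.56 and was not called (adjusted p = 0.127), at 86.3 to 250 CPM in DA lungs, against 73.3 to 170 CPM in control lungs. Sparc, for a collagen-binding matrix protein, stood at 0.52 (adjusted p = 0.0986). Mia3, for the receptor that loads procollagen into transport carriers, stood at -0.26 (adjusted p = 0.0839), and Tll1, for a proteinase related to Bmp1, at -0.74 (adjusted p = 0.121). Tll2 was below the filter, and Pcolce2 was not analysed here.

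Of the substrate genes, 10 of 12 were tested, 4 rose and 0 fell (8 and 0 at an unadjusted p under 0.05; 6 and 0 by DESeq2), with a median of 0.92. Col1a1 and Col1a2 led, at log2 fold changes of 1.95 (adjusted p = 0.00292) and 1.51 (adjusted p = 0.00554). Eln, the elastin gene, had 321 to 2263 CPM in DA lungs, against 175 to 702 CPM in control lungs (1.35, adjusted p = 0.0562), and was not called. Col11a2 was the tested substrate gene with a negative value (-0.15, adjusted p = 0.759). Of 6 genes whose products bind or supply lysyl oxidases or their substrates, 3 rose and 1 fell, the same numbers as by DESeq2, with a median of 0.73. On the log2 scale, Efemp2 rose by 0.95 (adjusted p = 0.00437) and Fbln5 by 1.29 (adjusted p = 0.0175); they encode fibulins that bring lysyl oxidases to elastin. Fmod, for a proteoglycan that binds both collagen and lysyl oxidase, rose by 1.39 (adjusted p = 0.0106). Atp7a, the transporter that loads copper into lysyl oxidases, fell by 0.67 (adjusted p = 0.011), at 31.2 to 56.5 CPM in DA lungs, against 55.7 to 77.4 CPM in control lungs. Fn1, for fibronectin, stood at -0.09 (adjusted p = 0.841). Over the 4 lists 11 genes were called higher and 1 lower; without DA replicate 4 these numbers were 18 and 2, and without control replicate 4 they were 7 and 1. Over all tested genes, 1226 were called higher and 1090 lower; without DA replicate 4 these were 1313 and 1461, and without control replicate 4 they were 578 and 583.

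**Figure D4:**
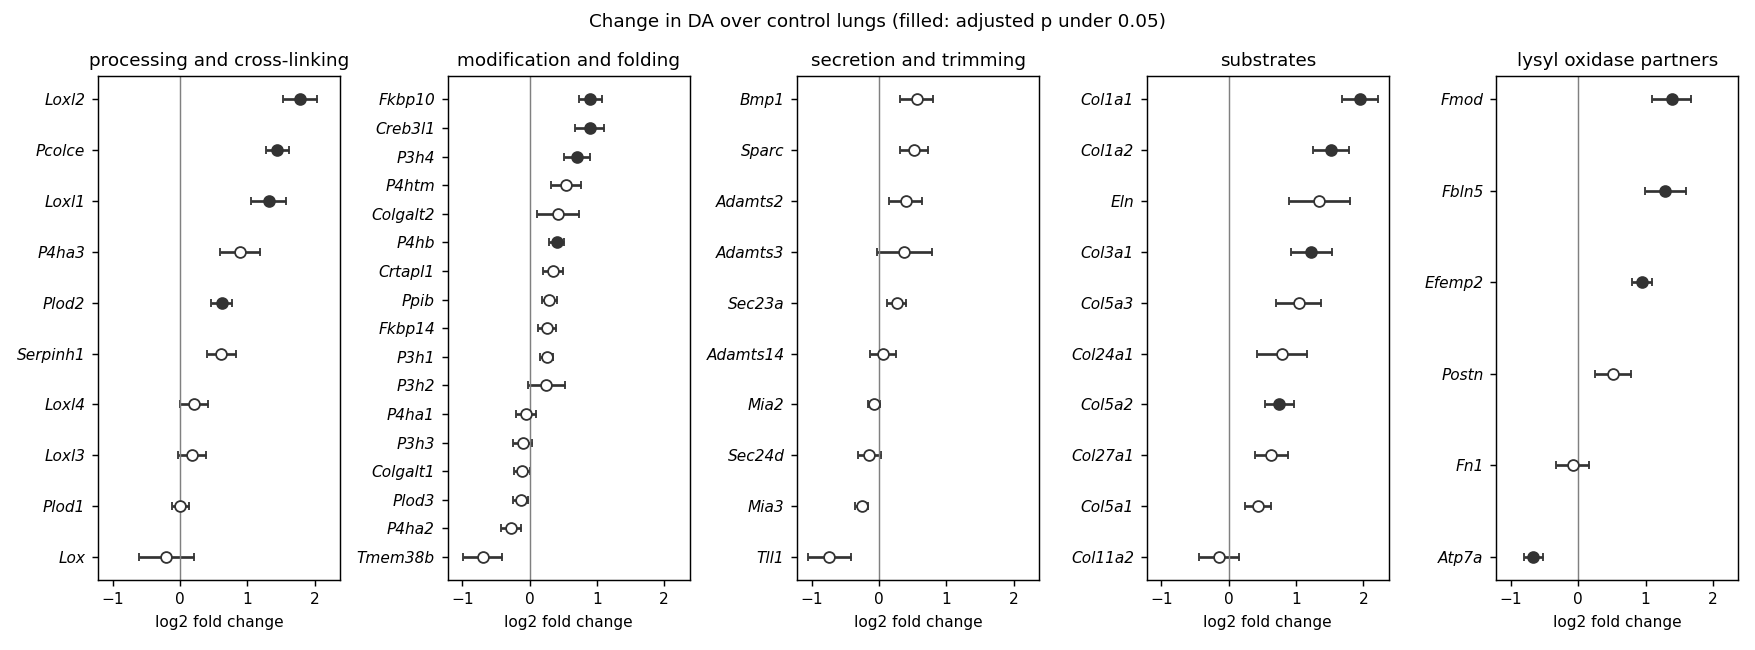
Log2 fold change in DA over control lungs with its standard error (horizontal axes) for the 10 genes and the tested genes of the 4 pathway lists; filled points have an adjusted p under 0.05 in edgeR. Of the 10 genes 4 are filled, from Plod2 at 0.62 to Loxl2 at 1.78, and Atp7a is the only filled point below 0.

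Markers of cells that make or could carry these RNAs also differed. Of 8 smooth muscle and myofibroblast markers, 6 rose and 0 fell, with a summed level of 1544 to 4652 CPM in DA lungs, against 719 to 1360 CPM in control lungs. Of 10 fibroblast markers, 2 rose (Lum and Col14a1) and 3 fell (Pdgfra, Tcf21 and Col13a1), with a summed level of 741 to 875 CPM in DA lungs, against 886 to 1206 CPM in control lungs. Of 4 tested cardiac markers 4 rose, but 2 were called by DESeq2 and 2 with a term for Y-linked reads. Among these 4, every DA library lay above every control for Actc1 alone, the gene that made up much of the cardiac sum. Of 8 cell cycle genes 5 rose and 0 fell. DESeq2 called 8, while 0 were called with a term for Y-linked reads and 0 within the libraries without such reads. Of all tested genes, 8.45% were called higher in the main test and 13.0% by DESeq2. That share was 3.78% with the term for Y-linked reads and 4.82% within the libraries without such reads. The cell cycle genes summed to 186 to 979 CPM in DA lungs, the highest in DA replicate 4, against 121 to 232 CPM in control lungs. Of 5 mesothelial markers 1 rose (Msln) and 0 fell, at 209 to 396 CPM in DA lungs, against 114 to 283 CPM in control lungs. Of 7 endothelial markers 1 fell (Tek) and 0 rose, at 1156 to 4847 CPM in DA lungs, against 3342 to 5001 CPM in control lungs. The 8 cartilage markers summed to 3.30 to 8.10 CPM in DA lungs, against 2.87 to 8.47 CPM in control lungs, with Hapln1 at 0 in all libraries. The 4 called genes and these smooth muscle, fibroblast and cardiac sums moved with the same groups, and the part of cell makeup in them was not tested.

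The 10 genes varied together within groups only in part. With group means removed, Pearson's r of log2 CPM over the 12 libraries was above 0 in 41 of 45 pairs, with a median of 0.47. It was highest between Loxl1 and Loxl4 (0.91) and between Loxl1 and Serpinh1 (0.90), and lowest between Lox and Pcolce (-0.56). Without DA replicate 4 the median was 0.21, with 34 of 45 pairs above 0, while Loxl1 and Serpinh1 stayed at 0.90 and Lox and Pcolce at -0.61. The pairs share libraries and depth, and these values are a description. The named genes whose log2 CPM over all 12 libraries was most like the mean standardised level of the 10 genes were Tmem161b (r = 0.95), Rtn4 (0.94), Septin8 (0.94) and Pamr1 (0.93). An unnamed gene, ENSRNOG00000064527, was at 0.94. With group means removed, Tmem161b (0.92), Poglut2 (0.92), Tfcp2l1 (0.91), Pamr1 (0.91) and Slc22a23 (0.91) were the most alike. The mean standardised level was -1.01 in DA replicate 4 and 0.33 to 1.23 in the other DA libraries. The genes most alike are given here only with DA replicate 4 included, and its part in their likeness was not tested.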

How the data were processed

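The tools named per the submitters' processing notes are HISAT2 2.2.1, an aligner, and HTSeq 2.0.2, a read counter, with mRatBN7.2 as genome build. Strand setting, annotation release and the origin of gene lengths are not given in the sources used here. The deposited table holds raw read counts per Ensembl gene and FPKM values, which equal the deposited count per length and per library total (relative deviation at most 5.3e-15). Groups followed the labels. The main test was edgeR 4.0.16 (R 4.3.3) on the counts: filterByExpr, TMM scaling and a two-sided quasi-likelihood F test on group alone, Benjamini-Hochberg adjusted over all 14517 tested genes, threshold 0.05. A standard error is the log2 fold change over the root of F. List counts carry no set test. The p-values set the difference between the groups against the spread between these libraries. A count of 0 allows up to 3 counts. Alternatives used DESeq2 1.42.0 and limma 3.58.1. The calls were tested on simulated counts.

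Members, lists, alternatives and the rule for named genes were chosen with earlier results of these data known. That rule took all 10 genes, the 2 genes of each pathway list with the smallest adjusted p in each direction, and the 5 most alike in pattern; other genes were named after their values were seen. Chosen after seeing the data were the interaction with Y-linked reads and the group overlaps and correlations without DA replicate 4. Replicate numbers are shared between groups, but same-numbered libraries did not deviate together in each pair.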

Additional observations from a re-analysis of the deposited data

Results flagged for a closer look

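Over 20 groups of 6 libraries (10 genes in DA and in control lungs), 4 held a library whose gap to its nearest neighbour was large against the whole range of its group. Chance flags about 5% of groups where values are normally distributed. The groups share the same libraries, and the P4ha3 and Plod1 flags fell on the same one, so no excess over chance is claimed. P4ha3 stood at 8.42 CPM in DA replicate 4, with the next DA library at 30.9 CPM. Plod1 stood at 46.3 CPM in DA replicate 4, with the next at 66.2 CPM. Pcolce stood at 101 CPM in DA replicate 1, with the next at 77.7 CPM. Loxl4 stood at 15.7 CPM in control replicate 3, with the next control at 19.0 CPM.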

How the results depend on the processing

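Over 25 alternatives, Loxl1, Loxl2 and Pcolce stayed called in 24 each, Plod2 in 21, while P4ha3 was called in 5 and Serpinh1 in 6. Leaving out single libraries gave 3 to 6 genes called higher of the 10, and 7 to 18 pathway genes called higher and 1 to 2 lower, while all genes called higher ranged from 578 (without control replicate 4) to 1558 (without DA replicate 2), against 1226 in all libraries. In the libraries with Y-linked reads alone, 0 of the 10 genes and 0 pathway genes in each direction were called; 4 DA stood against 2 control libraries there. Pathway genes called lower numbered 2 by DESeq2, under voom with quality weights and in the libraries without Y-linked reads alone, and 21 were called higher under voom. The sign of Lox turned with a term for Y-linked reads (0.14), in the libraries with such reads alone (0.85) and with a term for clock score (0.10). Plod1 stayed near 0 and changed sign by DESeq2 (-0.0079), with DESeq2 size factors in edgeR (-0.0079), with no filter (-0.0043), in the libraries with Y-linked reads (-0.0041) and without single libraries (-0.041 to 0.087). The cause was not tested.

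With the replicate number as a block, 5 of the 10 genes were called higher and 0 lower, 9 pathway genes were higher and 1 lower, and Plod1 stood at -0.0086. Over same-numbered pairs the correlation of deviations ran from -0.26 to 0.30, so the numbers were not taken to pair the libraries; 3 of 6 DA libraries were most like the control of their own number. At these depths Loxl3, with 69 to 130 counts per library, is measured least precisely.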
